A study of Mus musculus with 5 samples.

Results

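The genes of mitosis and the spindle are 40 genes chosen by name for what their proteins do in cell division, with earlier results of these data known. They are 6 cyclins, CDK and CDC25 phosphatases, 5 mitotic kinases, 4 genes of the spindle checkpoint, 3 genes of the anaphase-promoting complex and securin, 3 of the chromosomal passenger complex, 6 of the centromere and kinetochore, 5 kinesins, 5 genes of spindle binding and cytokinesis, and the proliferation marker Mki67 with Top2a and Foxm1. All 40 were found among the 33003 gene names on the array, lincRNA probes left out. The study isolated liver sinusoidal endothelial cells (LSECs) from mouse liver and tumor endothelial cells (TECs) from hepatoma grown in the left lobe of the mouse liver from the lines HAK1B, KYN2 and Hepa1-6, and compared their gene expression. HAK1B and KYN2 are of human origin, and Hepa1-6, a mouse line, was also measured alone in culture. Labels give the strain C57BL/6 for the LSEC and the 3 TEC samples and C57L for the Hepa1-6 cells, and the methods name female C57BL/6 or nude mice bought at 6 weeks of age without saying which mice bore which tumor. None of the labels names a drug treatment. TECs were taken from digested tumors with beads against mouse CD31, so the cells are those that the beads held. The paragraph of the methods on the arrays names Huh-7 in place of HAK1B, and the name on the labels is used here.

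Each of the 5 conditions had 1 array, so no difference between 2 conditions has a replicate check and none was tested. Values are log2 signals after quantile normalization of the 5 arrays, and each gene is read from 1 probe, the one with the highest mean signal. A level of one gene cannot be set against that of another, since probes bind with different strength. Probes well above background made up 44.6% to 57.6% of 56605 on 4 arrays and 78.1% on the Hepa1-6 TEC array. Spots repeated within an array had a median coefficient of variation of 2.53% to 2.94%, a measure of the array and not of the animals. The 3 TEC arrays shared 1 slide, so comparisons between TECs lie within it. LSEC and the Hepa1-6 cells each had a slide of their own, and a difference of either from the TECs cannot be told apart from one of slide. As for identity, all 15 pan-endothelial markers were well above background on the 4 endothelial arrays and 3 of them in the Hepa1-6 cells, but their median log2 ratio to LSEC was -2.84 in HAK1B TEC, -1.62 in KYN2 TEC and -2.56 in Hepa1-6 TEC. All 12 macrophage markers were also well above background on the 4 endothelial arrays. In such bulk samples, fewer cells of a type and less RNA per cell cannot be told apart.

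Cells that enter mitosis switch on a shared set of genes late in the cell cycle. Cyclin B with CDK1 drives entry into mitosis, the Aurora and Polo kinases build the spindle, and kinetochores tie chromosomes to it. The spindle checkpoint holds back the anaphase-promoting complex until every chromosome is attached. The passenger complex and kinesins act both before that point and in the division that follows. Resting endothelium of the adult liver divides rarely, whereas vessels that grow into a tumor contain dividing cells. Many promoters of this set carry the cell cycle genes homology region (CHR), the element that the MuvB complexes bind, near a CCAAT box, the element of the factor NF-Y.

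Promoters of the mitotic genes are shown first, because they carry a sequence that the choice of genes did not use. A promoter here is the 250 bases before and 50 bases after the first listed RefSeq start site of a gene on GRCm38.p6. Other start sites were not searched, so a promoter printed here, that of Kif2c included, need not be the main one of its gene. Of the 40 genes, 32 had one in the table used. The other 8 were Cdc25c, Ccna2, Kif20a, Pbk, Foxm1, Aurkb, Incenp and Tpx2. Capitals mark 2 elements, searched on both strands. The CHR reads TTTGAA, and TTCAAA where it lies on the other strand. The CCAAT box reads ATTGG on the other strand. Those printed are Cdk1 at chr10:69352863-69353162 on the minus strand, Ccnb2 at chr9:70421505-70421804 on the minus strand, Plk1 at chr7:122159185-122159484 on the plus strand, Cdc20 at chr4:118437294-118437593 on the minus strand, Ube2c at chr2:164769679-164769978 on the plus strand, Kif2c at chr4:117178723-117179022 on the minus strand, Mki67 at chr7:135716330-135716629 on the minus strand and Cenpa at chr5:30666636-30666935 on the plus strand. The first 7 belong to genes with higher signal in the TECs, Cenpa to the gene with the smallest mean ratio, and in Ube2c a CCAAT and an ATTGG overlap.
Cdk1: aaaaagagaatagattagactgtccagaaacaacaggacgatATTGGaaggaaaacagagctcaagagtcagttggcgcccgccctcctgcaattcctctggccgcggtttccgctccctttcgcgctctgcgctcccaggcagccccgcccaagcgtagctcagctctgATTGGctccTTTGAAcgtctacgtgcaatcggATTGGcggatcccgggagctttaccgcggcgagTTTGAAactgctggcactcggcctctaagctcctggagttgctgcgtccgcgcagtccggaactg
Ccnb2: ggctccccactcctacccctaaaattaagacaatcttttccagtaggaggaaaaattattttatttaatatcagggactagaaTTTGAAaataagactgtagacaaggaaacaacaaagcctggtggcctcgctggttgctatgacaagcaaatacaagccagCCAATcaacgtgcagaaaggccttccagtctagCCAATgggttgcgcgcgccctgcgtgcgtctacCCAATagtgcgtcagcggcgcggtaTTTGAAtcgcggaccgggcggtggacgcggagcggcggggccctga
Plk1: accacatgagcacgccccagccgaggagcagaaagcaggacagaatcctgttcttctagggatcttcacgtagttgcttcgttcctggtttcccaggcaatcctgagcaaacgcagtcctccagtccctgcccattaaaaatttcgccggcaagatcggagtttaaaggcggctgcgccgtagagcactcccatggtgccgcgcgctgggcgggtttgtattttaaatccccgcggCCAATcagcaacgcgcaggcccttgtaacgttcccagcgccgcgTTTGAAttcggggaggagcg
Cdc20: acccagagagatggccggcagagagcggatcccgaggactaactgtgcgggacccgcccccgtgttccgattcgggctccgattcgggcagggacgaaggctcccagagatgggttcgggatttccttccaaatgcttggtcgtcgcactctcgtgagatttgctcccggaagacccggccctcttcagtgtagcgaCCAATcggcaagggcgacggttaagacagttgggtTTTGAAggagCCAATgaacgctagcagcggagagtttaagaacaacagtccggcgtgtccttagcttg
Ube2c: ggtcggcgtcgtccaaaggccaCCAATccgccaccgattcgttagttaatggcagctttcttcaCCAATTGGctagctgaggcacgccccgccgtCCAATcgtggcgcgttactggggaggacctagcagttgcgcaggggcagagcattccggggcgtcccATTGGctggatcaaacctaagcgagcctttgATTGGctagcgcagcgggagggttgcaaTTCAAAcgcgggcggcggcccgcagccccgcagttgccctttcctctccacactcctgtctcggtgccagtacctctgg
Kif2c: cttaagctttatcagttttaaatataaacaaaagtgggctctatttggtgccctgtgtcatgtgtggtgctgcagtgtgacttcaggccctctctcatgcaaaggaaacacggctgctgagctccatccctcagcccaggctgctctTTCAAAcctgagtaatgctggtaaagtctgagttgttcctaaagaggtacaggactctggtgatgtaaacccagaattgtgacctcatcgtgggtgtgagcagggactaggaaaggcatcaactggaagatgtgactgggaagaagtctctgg
Mki67: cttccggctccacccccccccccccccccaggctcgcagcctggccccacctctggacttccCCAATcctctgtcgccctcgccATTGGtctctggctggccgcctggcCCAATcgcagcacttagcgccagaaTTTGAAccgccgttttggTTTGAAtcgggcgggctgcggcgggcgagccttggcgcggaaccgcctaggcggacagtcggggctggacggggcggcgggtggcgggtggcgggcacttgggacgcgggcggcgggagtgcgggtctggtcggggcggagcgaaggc
Cenpa: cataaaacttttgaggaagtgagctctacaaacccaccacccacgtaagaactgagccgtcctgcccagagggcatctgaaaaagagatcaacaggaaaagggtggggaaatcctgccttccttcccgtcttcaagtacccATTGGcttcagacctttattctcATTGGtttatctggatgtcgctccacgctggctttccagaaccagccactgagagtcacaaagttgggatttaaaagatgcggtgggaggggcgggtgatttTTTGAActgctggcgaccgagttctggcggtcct

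A CHR was present in 22 of the 32 promoters (68.8%), against 16.5% of the 17492 promoters of protein-coding genes and 18.1% of all 27025 promoters of the same length. A CCAAT box was present in 24 of 32 (75%), against 39.0% of the protein-coding promoters. Both were present in 19 of 32 (59.4%), against 6.68% of the protein-coding promoters. CHR matches in the mitotic genes also lay near the start site. From 60 bases before it to 20 after it lay 13 of their 28 matches (46.4%), against 19.6% of the 3310 matches in protein-coding promoters, in a window set after the positions were seen. Looser forms of the element were in 16 of 32 promoters (50%), against 23.8%, of which TTTAAA was in 9 promoters (28.1%, against 12.1%) and CTTGAA in 5 (15.6%, against 12%). These matches describe letters in a window and were not tested. Genes with and without a CHR were not compared by their ratios. Cenpa, Hmmr and Ndc80, the 3 genes with the smallest mean ratios by the probe used, had a CHR as well, and the ratio of Hmmr depended on the probe.

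**Figure D1:**
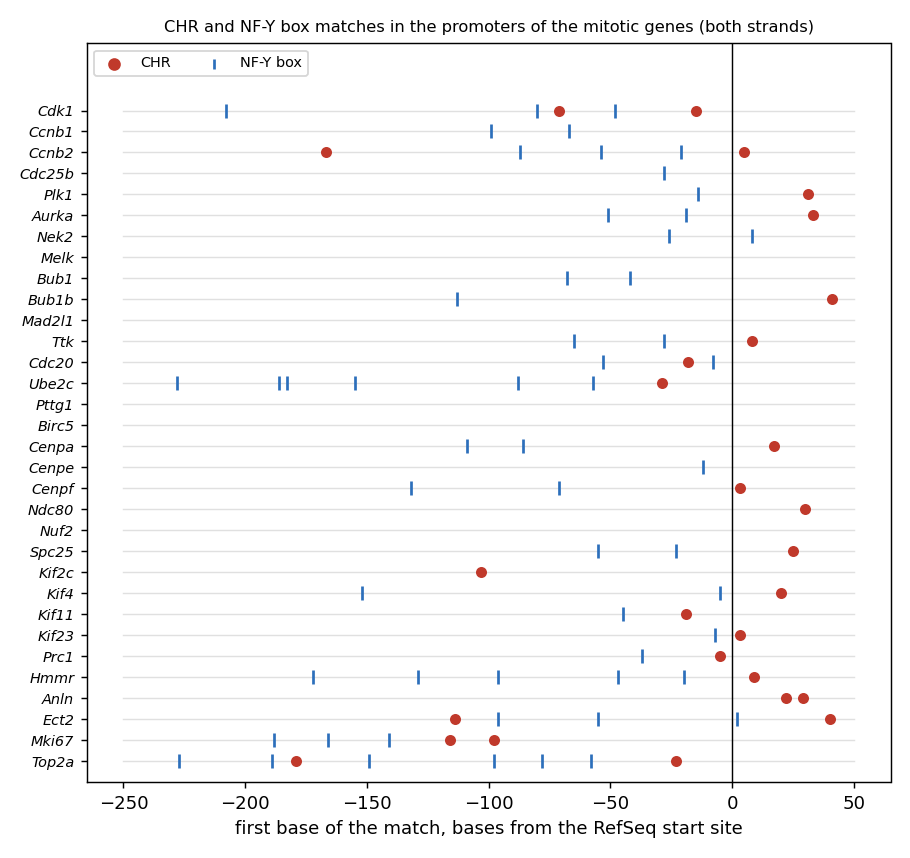
Position of CHR matches (red dots) and of NF-Y boxes (blue ticks) on both strands in the promoters of 32 mitotic genes, in bases from the first listed RefSeq start site (vertical line at 0). Of the 28 CHR matches, 13 lie between 60 bases before and 20 bases after the start site.

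As a group the mitotic genes had higher signal in each TEC sample than in LSEC, most in Hepa1-6 TEC, and the highest signal in the cultured Hepa1-6 cells. Their median log2 ratio to LSEC was 1.49 in HAK1B TEC (2.80-fold, quartiles 0.84 and 1.72), 2.07 in KYN2 TEC (4.19-fold, quartiles 1.53 and 2.39) and 2.80 in Hepa1-6 TEC (6.96-fold, quartiles 2.40 and 3.35). In the Hepa1-6 cells it was 4.62 (24.6-fold, quartiles 3.63 and 5.01). Over all genes kept in the same comparisons the median was -0.00, -0.05, 0.09 and -0.02. All 40 genes were well above background on the TEC arrays and in the Hepa1-6 cells, and 36 on the LSEC array, the others being Cdc25c, Nek2, Kif2c and Kif11. With these 4 at the lower bound of their ratio, the median log2 ratio was 2.75 in Hepa1-6 TEC and unchanged on the other arrays, and the counts of genes at least 2-fold higher did not change.

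At least 2-fold higher than in LSEC were 28 of the 40 mitotic genes in HAK1B TEC, where 17.5% of all genes kept were so. They were 32 of 40 in KYN2 TEC (16.9% of all genes), 37 of 40 in Hepa1-6 TEC (25%) and 39 of 40 in the Hepa1-6 cells (28.2%). None of the 40 was 2-fold lower in any of these. In all 3 TECs together, 28 of 40 reached 2-fold, against 5.55% of 26905 genes. By the probe used, the other 12 were Cdk1, Cdc25b, Mad2l1, Pttg1, Incenp, Cenpa, Ndc80, Kif4, Kif23, Hmmr, Ect2 and Foxm1. The 3 TECs were compared with the same LSEC array, so a low value on that array enters every one of these ratios.

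**Figure D2:**
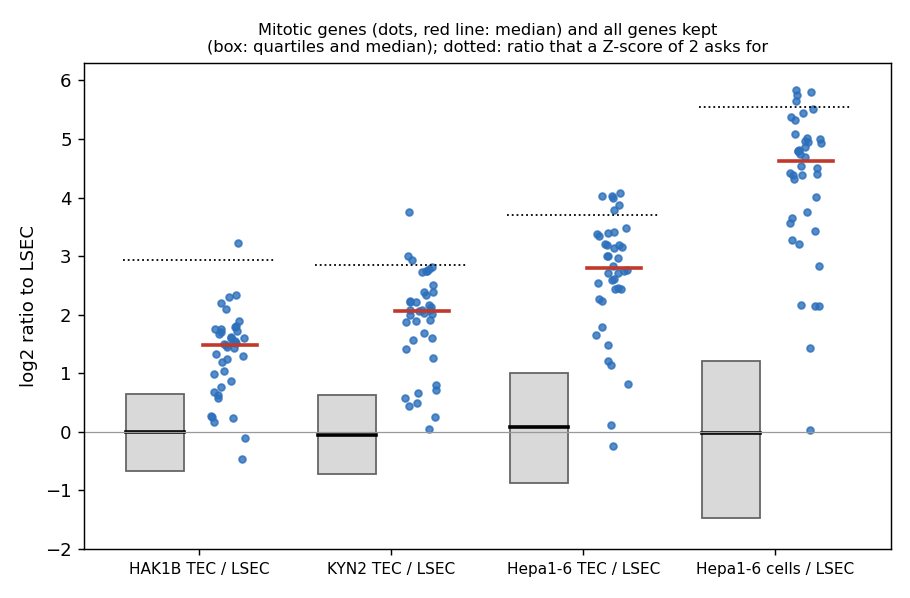
Log2 ratio to LSEC of the 40 mitotic genes (blue dots, red line at their median) beside all genes kept (grey box from quartile to quartile, black line at the median) on each array. The red lines lie at 1.49, 2.07, 2.80 and 4.62, and the dotted lines show the ratio that a Z-score of 2 asks for.

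The rule of size in the methods, which asks for a 1.5-fold ratio and a Z-score of 2 or more, called few of them. The spread of all log2 ratios was so wide that the Z-score alone asked for 7.68-fold in HAK1B TEC, 7.21-fold in KYN2 TEC, 13.0-fold in Hepa1-6 TEC and 46.9-fold in the Hepa1-6 cells. In HAK1B TEC it called 1 mitotic gene, Kif2c (2.92% of all genes). In KYN2 TEC it called 3, Bub1, Cdc20 and Kif2c (3.31% of all genes). In Hepa1-6 TEC it called 6, Ccnb1, Cdc25c, Plk1, Cdc20, Ube2c and Kif2c (3.8%), and in the Hepa1-6 cells 4, Cdc25c, Nek2, Ube2c and Kif2c (2.14%). The rule therefore passed over most of the mitotic genes that were 2-fold higher. These calls use the measured ratio also where LSEC was not well above background. By the lower bound Kif2c lay under the Z-score fold in HAK1B TEC (5.66-fold) and Hepa1-6 TEC (10.2-fold), and Kif2c (32.4-fold) and Nek2 (38.1-fold) lay under it in the Hepa1-6 cells, which left 0, 3, 5 and 2 genes past it in HAK1B TEC, KYN2 TEC, Hepa1-6 TEC and the cells. The counts also moved with the processing, for Hepa1-6 TEC from 1 to 21 of 40 with the Z-score and to 38 without it.

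The order of the arrays was shared by nearly all of them. LSEC was the lowest of the 4 endothelial arrays for 38 of the 40 mitotic genes, against 26.9% of all genes, with Cenpa and Ndc80 as exceptions. It was the lowest while the Hepa1-6 cells were the highest of all arrays for 37 of 40, against 10.3% of all genes, and Hmmr was the further exception. Within the TECs, 36 of 40 stood in the order HAK1B, KYN2 and Hepa1-6 from low to high, against 23.4% of all genes. The exceptions to this order were Bub1b, which was highest in KYN2 TEC, and Cdc25b, Cenpa and Hmmr.

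**Figure D3:**
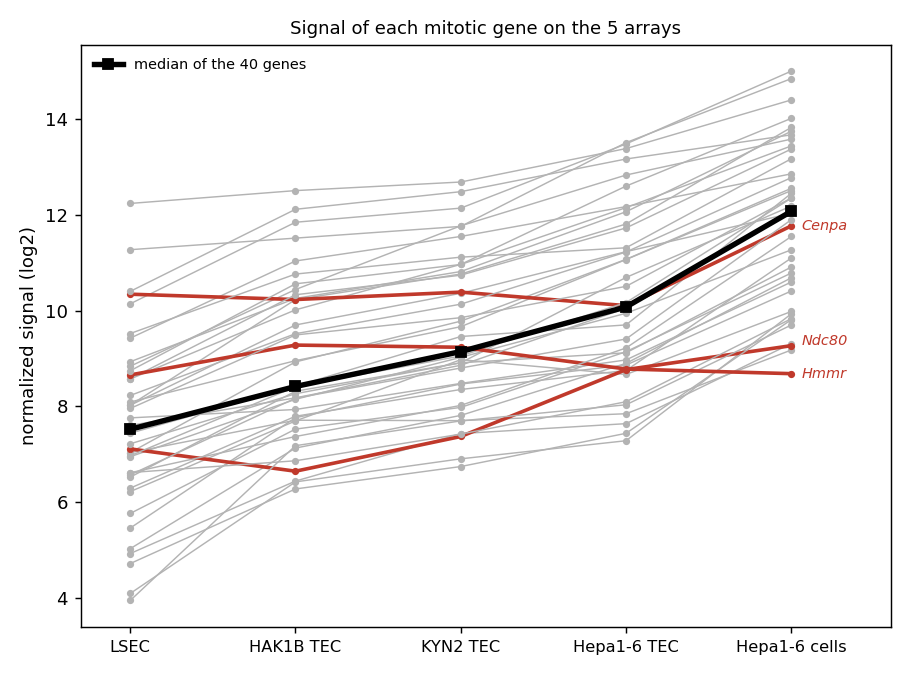
Normalized log2 signal of each of the 40 mitotic genes on the 5 arrays (grey lines, 1 per gene) with the median of the genes (black squares). Cenpa, Ndc80 and Hmmr (red) are the genes that do not run from a low in LSEC to a high in the Hepa1-6 cells, and heights of different lines cannot be compared.

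The genes are taken by role below, with log2 signals in the order LSEC, HAK1B TEC, KYN2 TEC, Hepa1-6 TEC and Hepa1-6 cells. Among the cyclins, CDK and CDC25 phosphatases, the median log2 ratio to LSEC was 1.64 in HAK1B TEC, 2.23 in KYN2 TEC and 2.98 in Hepa1-6 TEC. Cdk1, the kinase that drives mitotic entry, had log2 signals of 7.44, 8.42, 9.46, 9.70 and 12.45, and KYN2 TEC and Hepa1-6 TEC lay close together. Ccnb1, its cyclin B partner, had 7.04, 8.93, 9.78, 11.07 and 12.55, and its log2 ratio to LSEC was 4.03 in Hepa1-6 TEC. Cdc25c, a phosphatase that activates the kinase, had 5.03, 7.13, 7.81, 8.90 and 10.68. Its LSEC probe was not well above background, so by the bound used it was at least 4.29-fold higher in HAK1B TEC, at least 6.88-fold in KYN2 TEC and at least 14.6-fold in Hepa1-6 TEC. For Cdc25c this bound equals the measured fold. Cdc25b, the related phosphatase, gave the smallest ratios of this role, with 7.03, 7.71, 7.70, 7.85 and 9.18, so that its 3 TEC signals were nearly alike. Ccna2 and Ccnb2, the other cyclins, had log2 ratios of 1.68 and 1.61 in HAK1B TEC and of 3.21 and 2.75 in Hepa1-6 TEC.

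All 5 mitotic kinases were at least 2-fold higher in each TEC, with median log2 ratios of 1.5, 2.21 and 3.19 in HAK1B, KYN2 and Hepa1-6 TEC. Plk1, the Polo kinase of mitotic entry and exit, had log2 signals of 8.57, 10.01, 10.96, 12.60 and 14.01, and its step from HAK1B TEC to Hepa1-6 TEC, 2.58, was the highest of the 40 genes. Nek2, a kinase of centrosome separation, had 4.09, 6.42, 6.90, 7.28 and 9.93. Its LSEC probe was not well above background, and it was at least 3.35-fold, 4.68-fold and 6.08-fold higher in HAK1B, KYN2 and Hepa1-6 TEC. Pbk, a kinase found in dividing cells, had the smallest mean ratio of the role, with 6.29, 7.79, 8.35, 8.75 and 11.10. Aurka, which matures the spindle poles, was the lowest kinase in HAK1B TEC, with a log2 ratio of 1.32, and Melk had 1.76 on that array.

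The 4 spindle checkpoint genes had median log2 ratios of 1.49, 2.63 and 2.84 in HAK1B, KYN2 and Hepa1-6 TEC. Bub1, a kinase that recruits the checkpoint to kinetochores, had log2 signals of 5.46, 7.76, 8.47, 8.86 and 10.41. Bub1b, which encodes the checkpoint protein BubR1, was the only one of the 40 genes with the order HAK1B, Hepa1-6 and KYN2 TEC, with 6.22, 7.70, 8.97, 8.67 and 9.98. Mad2l1, which encodes the inhibitor Mad2, had the smallest mean ratio of the role, with 8.09, 8.95, 9.66, 11.06 and 12.50. It was under 2-fold in HAK1B TEC by the probe used. Its second probe, well above background on all 5 arrays, had a log2 ratio of 1.24 there, which is over 2-fold. Ttk, the kinase Mps1 that starts checkpoint signalling, had log2 ratios of 1.51, 2.50 and 2.71 in HAK1B, KYN2 and Hepa1-6 TEC.

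Of the genes that act at the exit from mitosis, Ube2c, the ubiquitin-conjugating enzyme of the anaphase-promoting complex, had log2 signals of 8.03, 10.23, 10.76, 11.81 and 13.82. Cdc20, the activator of that complex and the target of the checkpoint, had 8.84, 10.44, 11.77, 12.83 and 13.58. Cdc20 differed more between KYN2 TEC and HAK1B TEC than any other of the 40 genes, by 1.33 on the log2 scale. Pttg1, which encodes securin, the inhibitor of sister separation, behaved otherwise. It had 11.27, 11.51, 11.76, 13.50 and 14.84, so HAK1B and KYN2 TEC lay within 0.49 of LSEC and Hepa1-6 TEC lay 2.23 above it.

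In the chromosomal passenger complex, Birc5, which encodes survivin, had log2 signals of 10.14, 11.84, 12.14, 13.48 and 15. Aurkb, the kinase of the complex, had log2 ratios of 1.79, 2.39 and 2.59 in HAK1B, KYN2 and Hepa1-6 TEC. Incenp, the scaffold that holds the kinase, had 12.23, 12.50, 12.68, 13.38 and 14.40, and was 2-fold higher in Hepa1-6 TEC alone of the TECs. The subunits of this complex thus differed among themselves, with the scaffold nearest to LSEC. Hepa1-6 TEC was highest of the TECs for all 3.

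The centromere and kinetochore genes differed among themselves, with log2 ratios in HAK1B TEC from -0.47 to 1.75. Cenpe, a kinetochore motor, had log2 signals of 8.58, 10.33, 10.74, 11.72 and 13.37, and Cenpf, Nuf2 and Spc25 were also at least 2-fold higher in all 3 TECs. Cenpa, the histone variant that marks the centromere, was the only gene lower than LSEC in 2 TECs. It had 10.34, 10.23, 10.38, 10.10 and 11.77, so the 4 endothelial arrays were nearly level and only the Hepa1-6 cells stood out. Ndc80, which binds microtubules in one complex with Nuf2 and Spc25, had 7.11, 6.65, 7.37, 8.77 and 9.27, lower than LSEC in HAK1B TEC. Its partners Nuf2 and Spc25 had log2 ratios of 1.60 and 1.24 on that array. For Cenpa and Ndc80 the 60-base probe used covers 471 and 963 bases of the mm9 genome, as a probe across exons does, and no second probe gave a measured check. The probes used for Cdk1 and Kif23 cover 2410 and 1121 bases, so a wide span was not particular to Cenpa and Ndc80.

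Kif2c, a kinesin that takes microtubules apart at the centromere, had log2 signals of 3.95, 7.18, 7.70, 8.03 and 9.70. Its LSEC probe was not well above background, and it was at least 5.66-fold, 8.10-fold and 10.2-fold higher in HAK1B, KYN2 and Hepa1-6 TEC. Its probe lay at chr4:116832904-116832963 (mm9), and a dimmer probe at chr4:116855067-116855126 was well above background on 2 arrays and gave a mean measured log2 ratio of 0.73 in place of 3.69, with neither probe well above background in LSEC. Kif11, the motor that pushes spindle poles apart, was at least 2.94-fold, 4.07-fold and 6.58-fold higher. Kif20a, a motor of cytokinesis, had log2 ratios of 1.05, 1.69 and 3.47. Kif23, a motor of the central spindle, had the smallest mean ratio of the kinesins, with 7.76, 7.93, 8.48, 8.97 and 10.59, and Kif4 was 0.25 above LSEC in HAK1B TEC. Kif4 and Kif23 were the kinesins under 2-fold in HAK1B TEC.

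**Figure D4:**
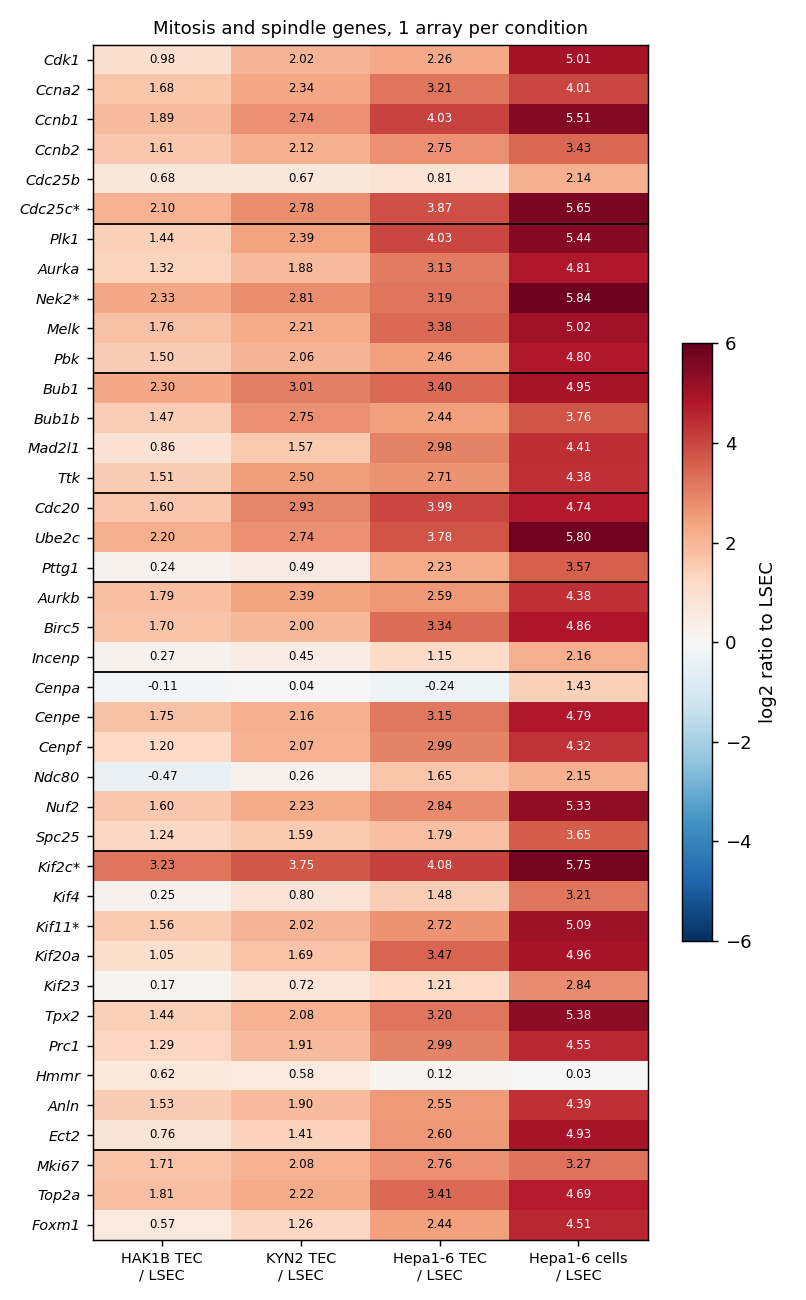
Log2 ratio to LSEC of each mitotic gene (rows, grouped by role between black lines) in the 3 TECs and in the Hepa1-6 cells (columns), 1 array each, with red for higher and blue for lower. Cenpa and Hmmr are the palest rows, the blue cells are Cenpa in HAK1B and Hepa1-6 TEC and Ndc80 in HAK1B TEC, and an asterisk marks the 4 genes not well above background in LSEC, whose measured ratio rests on that dim LSEC probe.

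Of the spindle-binding and cytokinesis genes, Tpx2, which activates Aurora A on the spindle, had log2 signals of 6.97, 8.41, 9.05, 10.17 and 12.35. Prc1, which bundles midzone microtubules, and Anln, which encodes anillin of the contractile ring, had log2 ratios of 1.29 and 1.53 in HAK1B TEC and of 2.99 and 2.55 in Hepa1-6 TEC. Ect2, the activator of RhoA in cytokinesis, had 0.76, 1.41 and 2.60 in HAK1B, KYN2 and Hepa1-6 TEC. Hmmr, a spindle-associated receptor for hyaluronan, depended on the probe. Its brightest probe, at chr11:40515324-40515383 (mm9), had log2 signals of 8.66, 9.28, 9.23, 8.78 and 8.68, nearly level on all 5 arrays. The probe at chr11:40519497-40519556 had 4.36, 6.01, 7.22, 9.02 and 9.77, and the probe at chr11:40535400-40536940 had 4.80, 6.13, 6.48, 8.10 and 8.20. Both were above background on 4 arrays, all but LSEC, and both followed the order of the other mitotic genes.

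Mki67, the antigen that marks dividing cells, had log2 signals of 10.40, 12.11, 12.48, 13.16 and 13.67, the smallest gap between Hepa1-6 TEC and the Hepa1-6 cells among the 3 genes of its group. Top2a, the topoisomerase that untangles sister chromatids, had 8.74, 10.56, 10.96, 12.15 and 13.44. Foxm1, a transcription factor of the late cell cycle, had 7.60, 8.18, 8.86, 10.05 and 12.11. By the probe used, Foxm1 was under 2-fold higher in HAK1B TEC while Mki67 was 3.28-fold and Top2a 3.52-fold higher. A dimmer Foxm1 probe, well above background on 4 arrays, had a log2 ratio of 1.14 there.

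Probes of 1 gene mostly pointed the same way. The 40 genes had 77 probes, of which 72 were well above background on at least 1 array, and 64 of these were higher in all 3 TECs than in LSEC. Of the 50 above background on all 5 arrays, 46 were higher in all 3 TECs. In the 20 genes with more than 1 measured probe, the mean log2 ratio over the TECs had the same sign for every probe of a gene, with a median spread of 0.56 between its probes. The spread was over 1.5 for Anln, Hmmr, Kif2c, Prc1 and Ttk, where dim probes took part, and 17 genes had 1 probe only.

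**Figure D5:**
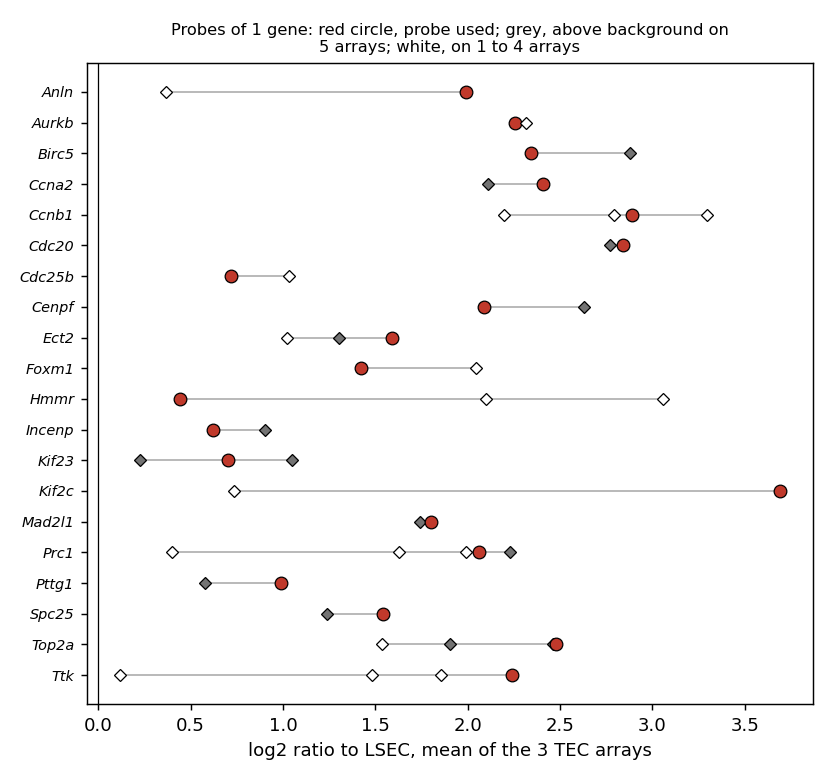
Mean log2 ratio to LSEC over the 3 TECs for every measured probe of the 20 mitotic genes with more than 1 (red circle, the probe used; grey diamond, above background on 5 arrays; white diamond, on 1 to 4 arrays). All probes lie to the right of 0, with the widest spread for Kif2c and Hmmr.

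Next, the TECs were compared with each other. Medians of the log2 differences were 0.56 for KYN2 TEC over HAK1B TEC, 0.78 for Hepa1-6 TEC over KYN2 TEC and 1.34 for Hepa1-6 TEC over HAK1B TEC, where all genes gave -0.02, 0.05 and 0.06. At least 2-fold higher were 3 of 40 mitotic genes in KYN2 TEC over HAK1B TEC (10.5% of all genes), 17 of 40 in Hepa1-6 TEC over KYN2 TEC (20.3%) and 30 of 40 in Hepa1-6 TEC over HAK1B TEC (21.9%). The 3 in KYN2 over HAK1B TEC, Cdk1, Bub1b and Cdc20, were a share below that of all genes, and none of the 40 was 2-fold lower in any of the 3 comparisons. By these medians the step was smaller between the tumors of the human lines than toward the tumor of the mouse line. The spread of all genes was wider there too. Its SD on the log2 scale was 1.01 for KYN2 over HAK1B TEC, 1.52 for Hepa1-6 over KYN2 TEC and 1.59 for Hepa1-6 over HAK1B TEC. Whether the steps differ beyond that spread was not tested.

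The TECs were also set beside the cultured Hepa1-6 cells. In HAK1B, KYN2 and Hepa1-6 TEC the mitotic genes had a median of 11.4%, 16.9% and 32.2% of the linear signal of the Hepa1-6 cells, where LSEC had 4.07%. On the log2 scale the TECs stood a median of 32.7%, 43.4% and 65.1% of the way from LSEC to the cells. Markers of hepatoma and fetal liver are given beside this. Of the 8 genes of hepatoma and fetal liver, 4 were well above background in the Hepa1-6 cells, and in Hepa1-6 TEC these had 68.9% (Afp), 153% (Gpc3), 33.2% (Igf2bp3) and 17.4% (Igf2bp1) of the signal of the cells. In HAK1B TEC and KYN2 TEC they were between 0.119% and 24.8%, with Gpc3 the highest on both, and in LSEC between 0.36% and 6.62%. In HAK1B TEC, Afp (0.119%) was lower than in LSEC (0.36%), while Gpc3 (24.8%) and Igf2bp3 (1.26%) were higher than in LSEC (6.62% and 0.624%). Igf2bp1 was not well above background in LSEC or in HAK1B TEC, so no direction is read for it there. The log2 of the summed signal of the 8 genes was 8.81 in LSEC, 9.49 in HAK1B TEC, 10.53 in KYN2 TEC, 15.51 in Hepa1-6 TEC and 16.16 in the cells, and it includes H19, which was not well above background in the cells. The array was made for mouse RNA, and how far it reads RNA of the human lines is not given in the sources used here. The part of cancer cell RNA in the mitotic signal was not tested.

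Markers of other cell types were also read. Stellate cell and fibroblast genes had median log2 ratios to LSEC of 0.30 in HAK1B TEC, 1.24 in KYN2 TEC and 1.39 in Hepa1-6 TEC. These medians are over 11, 11 and 12 of the 12 genes, so they rest on different sets. Compared directly, the median log2 ratio of Hepa1-6 TEC over KYN2 TEC was -0.51, and 2 of 12 genes were higher in Hepa1-6 TEC. The log2 of the summed signal of these genes was 13.70 in LSEC, 14.57 in HAK1B TEC, 15.15 in KYN2 TEC and 15.54 in Hepa1-6 TEC. In the Hepa1-6 cells it was 16.94. Dcn alone had a log2 signal of 14.72 in Hepa1-6 TEC and 16.74 in the cells, so this sum does not read fibroblasts alone. Col1a1, the collagen chain of fibroblasts, was not well above background in LSEC and had log2 signals of 9.46, 11.53 and 10.87 in HAK1B, KYN2 and Hepa1-6 TEC. The 16 hepatocyte genes had medians in the order of the mitotic genes, -4.21, -2.47 and 0.36 in HAK1B, KYN2 and Hepa1-6 TEC. The log2 of the summed signal of the hepatocyte genes was 16.85 in LSEC, 16.72 in HAK1B TEC, 16.32 in KYN2 TEC and 17.79 in Hepa1-6 TEC. Trf alone had 16.22, 16.70, 16.26 and 17.22 on these arrays, so the sum is mostly that gene. T and NK cell genes had medians of 0.15, -0.01 and 0.70, B and plasma cell genes 0.45, 0.37 and -1.35, and erythroid genes -2.86, -0.71 and -1.37 in HAK1B, KYN2 and Hepa1-6 TEC. The 13 neutrophil genes had a median log2 ratio to LSEC of 4.66 in HAK1B TEC, 3.31 in Hepa1-6 TEC and 1.11 in KYN2 TEC over the 12, 13 and 10 genes kept, so that HAK1B TEC was highest for neutrophil genes and lowest of the TECs for mitotic genes. The log2 of the summed signal of the neutrophil genes was 16.52 in LSEC, 17.64 in HAK1B TEC, 16.33 in KYN2 TEC and 16.07 in Hepa1-6 TEC. Csf3r alone had 16.45, 15.80, 16.15 and 15.17 on these arrays and 15.22 in the Hepa1-6 cells, so the sum in LSEC and KYN2 TEC is mostly that gene. The 12 macrophage genes had a log2 of the summed signal of 19.77 in LSEC, 19.76 in HAK1B TEC, 19.21 in KYN2 TEC and 18.86 in Hepa1-6 TEC. Pan-endothelial genes had 19.32 in LSEC, 16.37 in HAK1B TEC, 17.31 in KYN2 TEC and 16.36 in Hepa1-6 TEC. The part of these cell types in the mitotic signal was not tested.

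Medians of neighbouring processes stood in the same order. A list of 70 other mitotic genes had median log2 ratios of 1.08, 1.66 and 2.37 in HAK1B, KYN2 and Hepa1-6 TEC and of 3.83 in the Hepa1-6 cells. Cdca3, a trigger of mitotic entry, and the kinesins Kif18b and Kif15 had the largest measured mean ratios, but neither kinesin was well above background in LSEC, so their rank is not settled. At least 2-fold higher were 39 of 70, 45 of the 69 kept and 53 of 70. Lower than LSEC in 2 or more TECs were 9 of them, Bub3, Ckap2l, Mis18a, Hjurp, Zw10, Cit, Mis12, Nsl1 and Gsg2. The list of 36 DNA replication genes had median log2 ratios of 0.73, 1.13 and 1.98 in the TECs and 3.11 in the cells, with the largest measured mean ratios for Orc1, which was not well above background in LSEC, Ccne1 and Rrm2, while Mcm3 and Pola1 were lower in 2 TECs. The 14 housekeeping genes had 0.16, 0.06 and 0.47 in the TECs.

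The 3 TECs were finally taken as 1 group against LSEC with limma, fitted over 26905 genes with 2 residual degrees of freedom and under the assumption that LSEC, with 1 array, varies as the TECs do. No gene reached a Benjamini-Hochberg adjusted p of 0.05 (0 genes), and 2469 had an unadjusted p under 0.05. Of the mitotic genes, 21 of 40 were higher at an unadjusted p under 0.05, against 3.24% of all genes, but that count was 3 without KYN2 TEC, 24 without HAK1B TEC and 23 without Hepa1-6 TEC. Kif2c had an adjusted p of 0.402 in limma, equal to the smallest of the fit, and Nek2 was next among the mitotic genes, but neither was well above background in LSEC, so their fitted differences are not given. Bub1, well above background on all arrays, had a log2 difference of 2.90 (SE 0.63) and was higher in 3 of 3 TECs. The median over the 40 genes of the mean ratio to LSEC was 2.14, and it was 1.79 to 2.50 when each TEC was left out in turn.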

How the data were processed

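RNA of 5 samples was read on Agilent 60-mer mouse arrays of 1 colour. The authors calculated spot intensities with Agilent Feature Extraction, version 9.5.1.1 by the methods and the labels, whereas the file headers give 10.7.1.1 for grid placement. They deposited the intensity of each spot (gProcessedSignal, background-subtracted, linear) with flags, and a table of normalized intensity values. Here control spots and outlier spots were left out, repeated spots were averaged, the 5 arrays were quantile normalized together on the log2 scale, and 4460 lincRNA probes were left out. A gene took the probe with the highest mean log2 signal. A comparison used the genes with the present flag on either of its arrays, and the Z-score was taken over these genes. No value column was left unmapped. Where a probe was not well above background in LSEC, the fold is a lower bound against the higher of its own signal and the lowest signal of probes well above background there. For Cdc25c and Kif11 it equals the measured fold. The bound is not strict, since Cdc25c was not well above background at a log2 signal of 5.03, above that lowest signal of 4.68. Values of the highest and lowest gene by mean ratio in each role were given in full, with the genes called by the rule of size. Tools were Python 3.11.15, numpy 2.4.6, pandas 2.3.3, R 4.3.3 and limma 3.58.1. The rule of size and limma were run on simulated arrays with large changes that were the same in all TECs. That setting is easier than these data, where the TECs differ, so it does not show how well the methods do here. Members and lists were chosen with earlier results of these data known. As alternatives, the arrays were scaled to the 75th percentile, normalized by pair or corrected with normexp (offset 50), the deposited table was used, probes and filters were chosen otherwise, the Z-score was dropped, and each TEC was left out. The number of arrays limits the precision.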

Additional observations from a re-analysis of the deposited data

How the results depend on the processing

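Median ratios to LSEC kept their direction under every alternative. The median log2 ratio lay between 1.02 and 1.52 for HAK1B TEC, 1.59 and 2.09 for KYN2 TEC, 2.23 and 2.83 for Hepa1-6 TEC, and 3.76 (normexp with an offset of 50) and 4.96 for the Hepa1-6 cells. Scaling to the 75th percentile moved the median of all genes from 0.09 to 0.43 for Hepa1-6 TEC over LSEC. Counts of mitotic genes at least 2-fold higher than LSEC ranged from 20 to 29 in HAK1B TEC, 25 to 32 in KYN2 TEC, 30 to 37 in Hepa1-6 TEC and 32 to 40 in the Hepa1-6 cells. LSEC was lowest of the endothelial arrays for 28 to 38 genes, and the order HAK1B, KYN2 and Hepa1-6 TEC held for 25 to 37. Some alternatives kept fewer of the 40 genes. The count of mitotic genes called by the rule of size moved most. For HAK1B TEC over LSEC it was 0 with normexp, with the mean of all probes, with the lowest-signal probe and with genes well above background on both arrays, and 33 without the Z-score, in place of 1. For KYN2 TEC it was 6 with normexp and with the mean of all probes, 1 with the lowest-signal probe, 9 with genes well above background on both arrays and with no filter, 5 with the Z-score over all probes and 35 without the Z-score, in place of 3. For Hepa1-6 TEC it was 1 with scaling to the 75th percentile, 3 by pair, 21 with normexp, 20 with genes well above background on both arrays, 10 with no filter and 38 without the Z-score, in place of 6. For the Hepa1-6 cells it was 7 with scaling to the 75th percentile and with the mean of all probes, 19 with normexp, 24 with genes well above background on both arrays, 20 with no filter, 8 with the Z-score over all probes and 39 without the Z-score, in place of 4. The cause was not tested. Of the ratios of single genes under the alternatives, 1251 stayed within 1.5-fold of the reported value and 99 moved further. The sign changed in 4 of these 1350, and in 0 of those with a reported ratio of 2-fold or more. They were Pttg1 in HAK1B TEC, from 0.24 to -0.05 with the mean of all probes and -0.34 with the lowest-signal probe, Hmmr in the Hepa1-6 cells, from 0.03 to -0.03 with normexp, and the mean over the TECs of Ndc80, from 0.48 to -0.10 without Hepa1-6 TEC. Ratios that an alternative did not keep are not in this count. Read without a filter, some dim probes differed in sign. For example, Kif2c had -0.29 in KYN2 TEC against 3.75 by the probe used, and Ect2 had -0.12 in Hepa1-6 TEC against 2.60. The count of genes higher at an unadjusted p under 0.05 in limma ranged from 3 to 24 when each TEC was left out. Quantile normalization by pair gives no value for the order of the arrays or for limma. No block for slide was fitted, because LSEC and the Hepa1-6 cells were each alone on theirs. No paired analysis was possible because there was only 1 array per condition. Signal over background limits Cdc25c, Nek2, Kif2c and Kif11 in LSEC.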
